A study of Mus musculus with 12 samples.

Results

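The amino acid breakdown enzymes are 50 genes, given as a list of symbols, whose products degrade phenylalanine and tyrosine, tryptophan, histidine, proline, lysine, the branched chain amino acids, glycine and serine, methionine with choline and cysteine, and glutamine. All 50 were among the 36292 gene symbols of the count table, and all 50 passed the filter that left 15836 genes for testing. They were measured by RNA sequencing in 12 xenografts of the human liver cancer line Hep3B (hepatocellular carcinoma) that grew under the skin of female BALB/c nu/nu mice, which lack T cells, implanted at about 8 weeks of age. Each of the 4 groups had tumors from 3 different mice, which received vehicle, 300 mg/kg of H3B-6527, 10 mg/kg of lenvatinib, or the 2 agents together at these doses (combination). Dosing was by mouth once a day once tumors had reached roughly 500 mm3, with collection 8 hours after dose 4. H3B-6527 is a selective inhibitor of the receptor kinase FGFR4, and lenvatinib inhibits several kinases, among them the VEGF and FGF receptors. All 4 groups share 1 cell line, so each result describes Hep3B tumors in this host.

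The liver is the main site at which most amino acids are broken down. A typical pathway starts with the removal of the amino group, opens or oxidizes the carbon skeleton, and ends in pyruvate, acetyl-CoA or an intermediate of the citric acid cycle. Many of these enzymes are abundant in mature hepatocytes, and several, such as HAL, TDO2 and TAT, act at the entry point that sets the flow through their pathway.

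Library totals ran from 34.42 to 36.89 M (mega) counts in vehicle, 23.82 to 40.43 M with H3B-6527, 31.27 to 37.14 M with lenvatinib and 30.96 to 40.94 M with the combination. The biological coefficient of variation was 8.19% in vehicle, 21.6% with H3B-6527, 10.7% with lenvatinib and 11.1% with the combination, so the H3B-6527 tumors varied most. Levels are given as CPM, counts per M of the library total scaled by its TMM factor, in the order of replicates 1, 2 and 3. Each fold change is on the log2 scale, given ± its SE, from edgeR's quasi-likelihood test, and a gene was called changed at an adjusted p under 0.05 over the 15836 genes. The summed level of 8 hepatocyte markers was 80430 to 87710 CPM in vehicle, 119800 to 162500 with H3B-6527, 81340 to 100900 with lenvatinib and 139500 to 153900 with the combination, all 8 being present in every group. Of 5 endothelial markers 4 were in the table, all under 1 CPM in every library, with sums of 0.0257 to 0.348 CPM. The 5 fibroblast markers summed to 48.5 to 54.3 CPM in vehicle, 26.8 to 36.0 with H3B-6527, 48.0 to 52.4 with lenvatinib and 31.5 to 36.0 with the combination, and 2 of the 5 were under 1 CPM in every library. For macrophages 5 of 6 markers were in the table, and their sums were 83.8 to 116 CPM in vehicle, 132 to 201 with H3B-6527, 99.5 to 108 with lenvatinib and 148 to 184 with the combination. The hepatocyte and macrophage sums thus moved upward, and the fibroblast sum downward, in the same 2 groups as the enzymes described next. Their part in the results was not tested. The table lists human symbols and the host is a mouse, so the endothelial, fibroblast and macrophage sums do not measure amounts of host cells. Whether these counts come from tumor cells or from host reads is not known. In bulk tumors, fewer cells of a type and less RNA per cell cannot be told apart.

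With H3B-6527, 32 of the 50 enzymes rose and 7 fell against vehicle, where 25.2% of all genes tested were called higher and 24.3% lower. With the combination 34 rose and 6 fell, beside 24.8% and 25.3% of all genes. Counting both directions, 39 and 40 of the 50 were called, beside 49.4% and 50.1% of all genes. The median log2 fold change of the 50 was 0.64 with H3B-6527 and 0.63 with the combination, against 0.01 over all genes in each comparison. Rises of at least 2-fold numbered 17 in each comparison (9.12% and 9.6% of all genes), and falls of at least 2-fold numbered 2 with H3B-6527 and 0 with the combination (7.53% and 7.57%). All 3 tumors of the H3B-6527 group lay above all 3 vehicle tumors for 34 enzymes and below them for 7 (28.1% and 27.9% of all genes). For the combination these numbers were 36 and 7 (31.8% and 32.8%). Scaling by library totals instead of TMM factors gave 30 enzymes higher and 7 lower with H3B-6527 (3022 and 4960 of all genes, against 3987 and 3842 with TMM), and 32 and 7 with the combination (2923 and 5339, against 3924 and 4006). The 2 comparisons share their 3 vehicle tumors, so their values are given side by side and are not independent of each other.

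**Figure D1:**
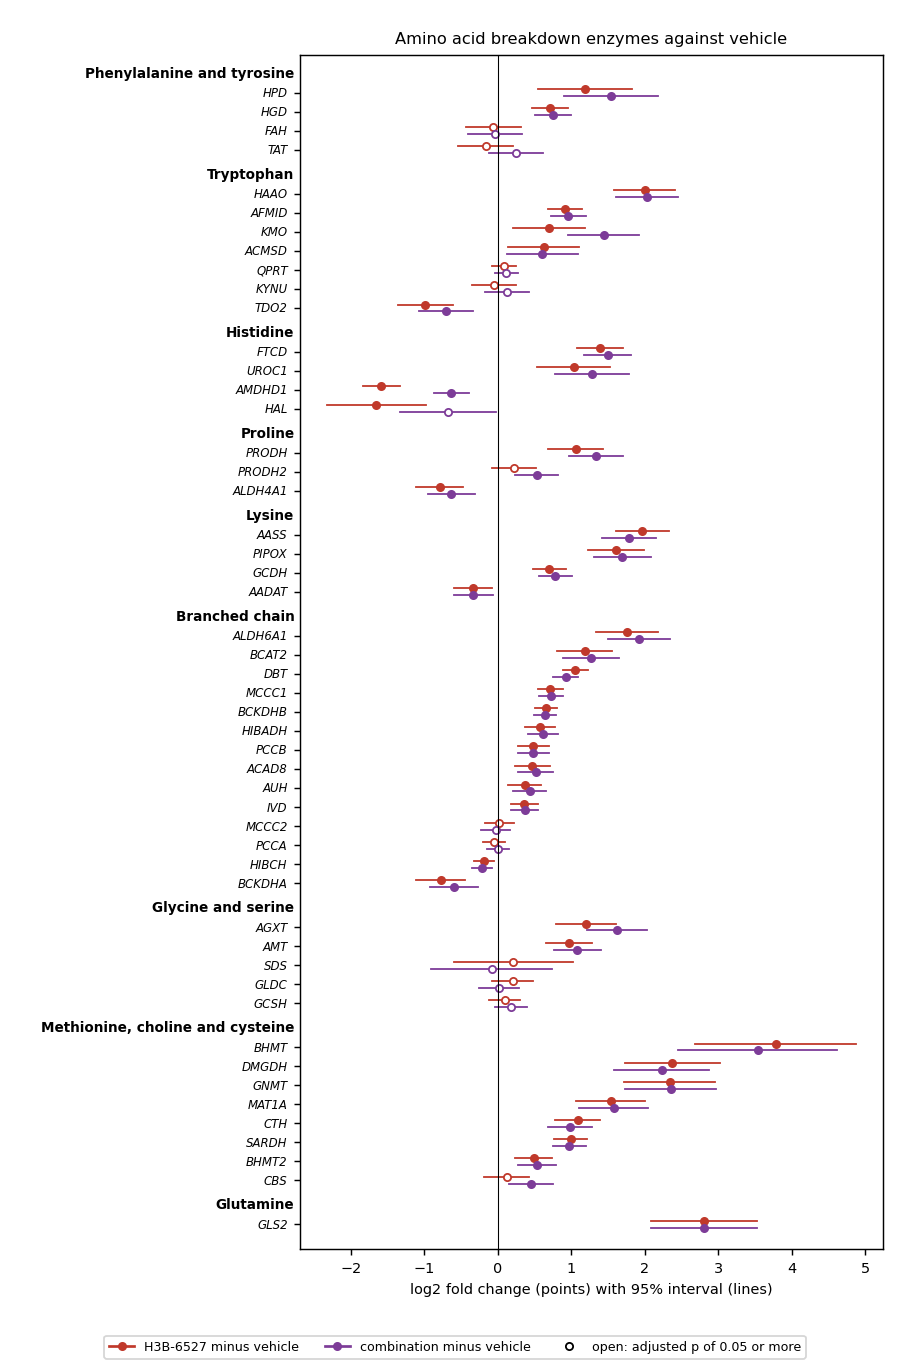
Log2 fold change against vehicle of each of the 50 enzymes, by pathway, with H3B-6527 and with the combination; points are estimates from edgeR, lines their 95% intervals, and filled points those with an adjusted p under 0.05. Most points lie to the right of 0, with BHMT (3.78 with H3B-6527) and GLS2 (2.81) farthest, and HAL (−1.66) and AMDHD1 (−1.59) farthest to the left.

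Tumor by tumor, the median over the 50 enzymes of log2(CPM + 1) minus the vehicle mean was −0.04 to 0.05 in vehicle, 0.64, 0.58 and 0.46 with H3B-6527, 0.28, 0.23 and 0.07 with lenvatinib, and 0.61, 0.70 and 0.63 with the combination. The H3B-6527 and combination tumors all lay above the lenvatinib tumors on this measure. H3B-6527 replicate 3, the library with the fewest counts, was the nearest of its group to vehicle for 29 of the 39 enzymes called, and replicate 1 was the farthest for 25. This ordering of replicates was not counted over all genes tested. The number called was 38 without replicate 3, 36 without replicate 2 and 38 without replicate 1. Without replicate 1, KMO and AADAT were lost and CBS was newly called.

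**Figure D2:**
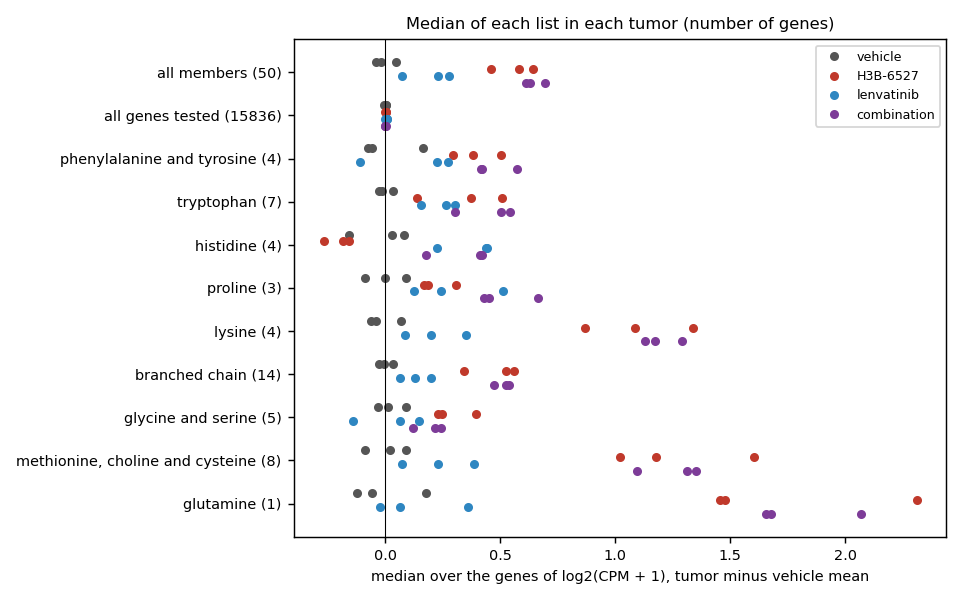
Median over the enzymes of each pathway, over all 50 and over all genes tested, of log2(CPM + 1) minus the mean of the vehicle tumors, with 1 point per tumor, by group. Over all 50 enzymes the H3B-6527 and combination tumors lie between 0.46 and 0.70, and the lenvatinib tumors between 0.07 and 0.28.

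In phenylalanine and tyrosine breakdown, 2 of 4 enzymes rose with H3B-6527 and the same 2 with the combination. For this and every later pathway count, 25.2% of all genes were called higher and 24.3% lower with H3B-6527. With the combination these shares were 24.8% and 25.3%. In either direction 49.4% and 50.1% of all genes were called, so 2 of 4 is near the share over all genes. HPD, which turns 4-hydroxyphenylpyruvate into homogentisate, stood at 122, 96.5 and 90.1 CPM in vehicle, 313, 201 and 186 with H3B-6527, 192, 171 and 81.3 with lenvatinib and 345, 306 and 247 with the combination. Its rise was 1.18 ± 0.29 (adjusted p = 0.00545) with H3B-6527 and 1.54 ± 0.29 (adjusted p = 0.00108) with the combination, and neither group overlapped vehicle, whereas the lenvatinib tumors did. HGD, which opens the ring of homogentisate, rose by 0.71 ± 0.11 (adjusted p = 2.22e-04) and 0.75 ± 0.11 (adjusted p = 1.41e-04). TAT, the transaminase at the entry of the tyrosine pathway, gave −0.17 ± 0.17 (adjusted p = 0.456) and 0.25 ± 0.17 (adjusted p = 0.255), and FAH, the last enzyme of the route, gave −0.06 ± 0.17 (adjusted p = 0.795) and −0.04 ± 0.17 (adjusted p = 0.877). The 95% interval for TAT with H3B-6527 was −0.54 to 0.21 and that for FAH −0.43 to 0.31, and neither interval reached the estimate for HPD.

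Of the 7 tryptophan enzymes, 4 rose and 1 fell in each comparison, and the one that fell was TDO2, the dioxygenase that opens the indole ring and commits tryptophan to the kynurenine pathway. TDO2 was at 9.49, 9.12 and 9.01 CPM in vehicle, 5.43, 4.23 and 4.23 with H3B-6527, 7.07, 11.6 and 7.77 with lenvatinib and 5.79, 5.60 and 5.54 with the combination. It fell by 0.99 ± 0.17 (adjusted p = 4.78e-04) with H3B-6527 and by 0.71 ± 0.17 (adjusted p = 0.00402) with the combination, with every tumor of these groups below every vehicle tumor. HAAO, which oxidizes 3-hydroxyanthranilate further down the pathway, moved the other way. Its level was 26.9, 28.7 and 22.8 CPM in vehicle, 135, 104 and 73.9 with H3B-6527, 37.2, 30.9 and 34.3 with lenvatinib and 122, 108 and 90.5 with the combination. That is a rise of 1.998 ± 0.19 (adjusted p = 8.40e-06) and of 2.03 ± 0.19 (adjusted p = 8.52e-06), again without overlap with vehicle. AFMID, which hydrolyses N-formylkynurenine, rose by 0.91 ± 0.11 (adjusted p = 2.50e-05) and 0.96 ± 0.11 (adjusted p = 1.86e-05). KMO, the kynurenine hydroxylase, rose by 0.69 ± 0.23 (adjusted p = 0.0218) with H3B-6527 and by 1.44 ± 0.22 (adjusted p = 1.93e-04) with the combination. ACMSD, which diverts the pathway from NAD synthesis toward oxidation, rose by 0.62 ± 0.22 (adjusted p = 0.0337) and 0.60 ± 0.22 (adjusted p = 0.0383), and its H3B-6527 tumors overlapped vehicle. KYNU, which cleaves 3-hydroxykynurenine, and QPRT, which leads quinolinate into NAD, were not called, at −0.06 and 0.08 with H3B-6527. KMO missed the threshold with H3B-6527 when vehicle replicates 2 or 3 were left out (adjusted p = 0.0730 and 0.0904) or replicate 1 of the treated group was (0.0749). The ACMSD call with H3B-6527 was lost without vehicle replicates 1 or 3 (0.0920 and 0.133) and without H3B-6527 replicates 2 or 3 (0.0941 and 0.107), and that with the combination without vehicle replicates 1 or 3 (0.102 and 0.149) and combination replicates 2 or 3 (0.0959 and 0.108).

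The 4 histidine enzymes act in a linear order, and with H3B-6527 the first and the third fell while the second and the fourth rose. HAL, histidine ammonia-lyase, removes the amino group to give urocanate. It was at 494, 598 and 445 CPM in vehicle, 79.6, 196 and 213 with H3B-6527, 660.3, 769 and 859 with lenvatinib and 238, 330.3 and 393 with the combination. HAL fell by 1.66 ± 0.31 (adjusted p = 9.86e-04) with H3B-6527, a 3.15-fold lower level, and its fold change with the combination was −0.68 ± 0.30 (adjusted p = 0.0812), which missed the threshold although all 3 combination tumors were below all 3 vehicle tumors. For that comparison DESeq2 gave −0.68 with an adjusted p of 0.0321, library totals without TMM factors gave −0.82 with 0.0443, and a fit that held only these 2 groups gave −0.67 with 0.0159. UROC1, which hydrates urocanate, stood at 44.3, 29.2 and 30.8 CPM in vehicle, 77.1, 72.2 and 63.7 with H3B-6527, 70.2, 57.4 and 34.5 with lenvatinib and 78.2, 96.5 and 79.3 with the combination. It rose by 1.03 ± 0.23 (adjusted p = 0.00297) and 1.29 ± 0.23 (adjusted p = 7.30e-04), without overlap with vehicle in either comparison.

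AMDHD1, which opens the imidazolone ring in the third step, was at 40.3, 46.0 and 42.8 CPM in vehicle, 12.7, 14.4 and 16 with H3B-6527, 49.3, 52.5 and 51.0 with lenvatinib and 23.9, 27.0 and 32.2 with the combination. The 4 groups did not overlap: H3B-6527 was lowest, then the combination, then vehicle, with lenvatinib highest. AMDHD1 fell by 1.59 ± 0.12 (adjusted p = 1.11e-06) with H3B-6527 and by 0.63 ± 0.11 (adjusted p = 4.99e-04) with the combination. Its difference between lenvatinib and vehicle, 0.24 ± 0.11 (adjusted p = 0.458), did not pass the threshold. FTCD, which passes the formimino group of the last intermediate to folate, was at 186, 182 and 154 CPM in vehicle, 434, 539 and 396 with H3B-6527, 246, 179 and 200.4 with lenvatinib and 556, 479 and 438 with the combination. It rose by 1.39 ± 0.15 (adjusted p = 1.07e-05) and 1.495 ± 0.15 (adjusted p = 7.14e-06), and no tumor of either group overlapped vehicle.

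**Figure D3:**
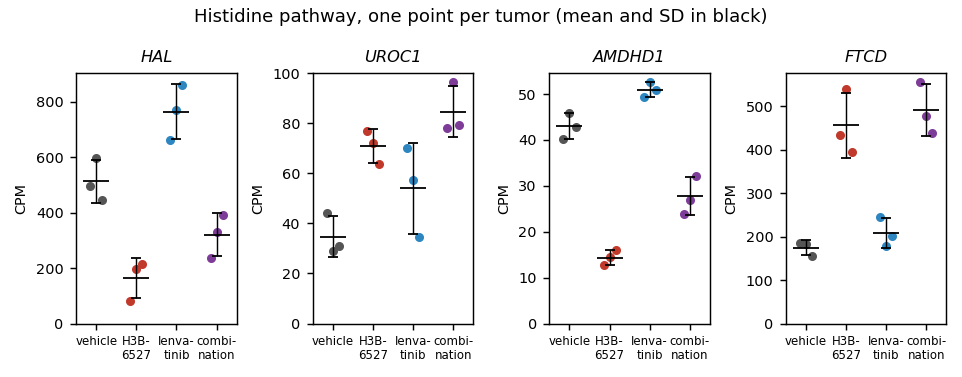
CPM, on linear axes from 0, of the 4 histidine breakdown enzymes in the order of their steps, with 1 point per tumor and the mean and SD of the 3 tumors of each group in black. HAL and AMDHD1 are lowest in the H3B-6527 tumors (AMDHD1 12.7 to 16 CPM against 40.3 to 46.0 in vehicle), while UROC1 and FTCD are higher there than in vehicle.

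Proline breakdown also held opposite changes, a rise of its first enzyme and a fall of the next. PRODH, which oxidizes proline, stood at 4.38, 4.05 and 3.76 CPM in vehicle, 8.59, 7.86 and 8.96 with H3B-6527, 8.85, 5.36 and 6.001 with lenvatinib and 9.17, 11.1 and 10.46 with the combination. It rose by 1.06 ± 0.17 (adjusted p = 2.62e-04) with H3B-6527 and by 1.33 ± 0.17 (adjusted p = 4.45e-05) with the combination, with all 9 treated tumors above vehicle. PRODH2, the hydroxyproline dehydrogenase, gave 0.22 ± 0.14 (adjusted p = 0.198) with H3B-6527 and rose by 0.53 ± 0.14 (adjusted p = 0.00587) with the combination. ALDH4A1, the next step for both substrates, was at 139.6, 131 and 128 CPM in vehicle, 56.2, 81.1 and 92.8 with H3B-6527, 144, 133 and 124 with lenvatinib and 76.5, 87.2 and 93.4 with the combination. ALDH4A1 fell by 0.79 ± 0.15 (adjusted p = 7.26e-04) and 0.63 ± 0.15 (adjusted p = 0.00315), with both groups wholly below vehicle. PRODH has a closely similar pseudogene, and how its reads were divided is not known.

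Among the lysine enzymes 3 of 4 rose and 1 fell in each comparison. AASS, which carries out the first 2 steps of the saccharopine route, was at 17.6, 16.8 and 16.9 CPM in vehicle, 89.5, 56.1 and 54.8 with H3B-6527, 25.4, 20.3 and 20.7 with lenvatinib and 60.3, 62.2 and 54.0 with the combination. It rose 3.91-fold with H3B-6527, 1.97 ± 0.17 (adjusted p = 3.16e-06) on the log2 scale, and 3.44-fold with the combination, 1.78 ± 0.17 (adjusted p = 6.61e-06). PIPOX, the peroxisomal oxidase of pipecolate and sarcosine, rose by 1.61 ± 0.18 (adjusted p = 1.79e-05) and 1.69 ± 0.18 (adjusted p = 1.34e-05), and GCDH, the glutaryl-CoA dehydrogenase that lysine and tryptophan breakdown share, by 0.70 ± 0.11 (adjusted p = 1.48e-04) and 0.78 ± 0.11 (adjusted p = 6.51e-05). AADAT, the 2-aminoadipate transaminase, was at 13.0, 11.03 and 10.45 CPM in vehicle, 9.13, 8.65 and 9.55 with H3B-6527, 10.9, 9.75 and 10.7 with lenvatinib and 8.13, 8.81 and 10.4 with the combination. Its fall was small, −0.34 ± 0.12 (adjusted p = 0.0332) and −0.33 ± 0.12 (adjusted p = 0.0353), with both groups just below vehicle. That call with H3B-6527 was lost on leaving out vehicle replicate 1 (adjusted p = 0.155) or replicates 1 or 2 of the treated group (0.0578 and 0.0941), and with the combination without vehicle replicates 1 or 2 (0.167 and 0.0501) or combination replicates 1 or 2 (0.140 and 0.102).

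The branched chain enzymes, which degrade leucine, isoleucine and valine in mitochondria, were the largest group, and 10 of 14 rose and 2 fell in each comparison, with medians of 0.48 and 0.50. BCAT2, the mitochondrial transaminase that starts the pathway, rose by 1.18 ± 0.17 (adjusted p = 1.39e-04) with H3B-6527 and 1.27 ± 0.17 (adjusted p = 7.99e-05) with the combination. The branched chain ketoacid dehydrogenase complex, which carries out the committed step, was divided between its subunits. BCKDHB, the E1 beta subunit, rose by 0.66 ± 0.07 (adjusted p = 9.85e-06) and 0.64 ± 0.07 (adjusted p = 1.24e-05), and DBT, the E2 subunit, by 1.05 ± 0.08 (adjusted p = 1.26e-06) and 0.92 ± 0.08 (adjusted p = 3.23e-06). BCKDHA, the E1 alpha subunit that pairs with BCKDHB, was at 34.7, 33.8 and 36.0 CPM in vehicle, 23.05, 20.9 and 16.7 with H3B-6527, 42.1, 32.3 and 32.5 with lenvatinib and 18.4, 23.97 and 26.9 with the combination. BCKDHA fell by 0.78 ± 0.15 (adjusted p = 0.00103) and 0.59 ± 0.15 (adjusted p = 0.00564), and every tumor of both groups was below vehicle.

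Downstream, the leucine enzymes IVD (0.36 with H3B-6527), MCCC1 (0.71) and AUH (0.36) and the valine enzymes ACAD8 (0.47) and HIBADH (0.57) rose, by 0.36, 0.72, 0.43, 0.51 and 0.61 with the combination. ALDH6A1, the methylmalonate semialdehyde dehydrogenase at the end of valine breakdown, had the largest rise of the 14. It was at 61.4, 56.3 and 48.3 CPM in vehicle, 244, 177 and 139.6 with H3B-6527, 94.3, 84.7 and 67.8 with lenvatinib and 211, 237 and 183 with the combination. Its fold change was 1.75 ± 0.19 (adjusted p = 2.06e-05) with H3B-6527 and 1.93 ± 0.19 (adjusted p = 1.24e-05) with the combination, and all 9 treated tumors were above vehicle. HIBCH, which releases 3-hydroxyisobutyrate in valine breakdown, fell by 0.19 ± 0.06 (adjusted p = 0.0242) and 0.21 ± 0.06 (adjusted p = 0.0142). In the carboxylases only 1 of the 2 subunits was called: MCCC1 and PCCB (0.48 and 0.48) rose, whereas their partners MCCC2, with a 95% interval of −0.18 to 0.22 for H3B-6527, and PCCA, with −0.20 to 0.10, were not called. Lost calls were those of AUH with H3B-6527 without vehicle replicate 1 (adjusted p = 0.0507) or with library totals (0.0726), of HIBCH with H3B-6527 without vehicle replicates 1 or 3 (0.0755 and 0.0710) or H3B-6527 replicate 2 (0.0648), and of HIBCH with the combination without vehicle replicate 1 (0.0508) or combination replicate 2 (0.0524).

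Among the 5 glycine and serine enzymes, AGXT and AMT rose in each comparison and GLDC, GCSH and SDS were not called. These 2 of 5 do not exceed the 49.4% and 50.1% of all genes called in either direction. AGXT, the peroxisomal transaminase that turns glyoxylate into glycine, was at 114, 96.3 and 86.5 CPM in vehicle, 273, 237 and 172 with H3B-6527, 183, 193 and 129 with lenvatinib and 330.0, 318 and 267 with the combination. It rose by 1.20 ± 0.19 (adjusted p = 2.36e-04) with H3B-6527 and by 1.62 ± 0.19 (adjusted p = 2.83e-05) with the combination, and all 9 treated tumors were above vehicle. AMT, the T protein of the glycine cleavage system, rose by 0.97 ± 0.15 (adjusted p = 1.72e-04) and 1.08 ± 0.15 (adjusted p = 7.42e-05). Its partners in that system, GLDC (the P protein) and GCSH (the H protein), gave 0.20 and 0.09 with H3B-6527 and 0.01 and 0.18 with the combination. GCSH has processed pseudogenes, so its counts are uncertain. SDS, serine dehydratase, had 241 counts over the 12 tumors, the fewest of the 50, and its interval of −0.60 to 1.02 with H3B-6527 includes both 0 and a 2-fold rise.

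The methionine, choline and cysteine enzymes had the highest median among the pathways with more than 1 member: 7 of 8 rose with H3B-6527 (median 1.31) and 8 of 8 with the combination (median 1.28). BHMT, which uses betaine made from choline to turn homocysteine back into methionine, was at 39.1, 31.5 and 29.3 CPM in vehicle, 825, 363 and 182 with H3B-6527, 77.7, 68.8 and 41.9 with lenvatinib and 472, 409.7 and 276 with the combination. With H3B-6527 it rose 13.7-fold, 3.78 ± 0.50 (adjusted p = 1.25e-04) on the log2 scale, and with the combination 11.6-fold, 3.54 ± 0.49 (adjusted p = 1.82e-04). All 9 treated tumors lay above vehicle, but the H3B-6527 tumors differed widely among themselves, and without replicate 1 the log2 fold change was 3.04 (adjusted p = 1.95e-04). BHMT2, a close paralog that uses S-methylmethionine as methyl donor, rose by 0.49 ± 0.12 (adjusted p = 0.00405) and 0.53 ± 0.12 (adjusted p = 0.00220); reads of the 2 paralogs may not be fully separable.

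DMGDH and SARDH oxidize in turn the dimethylglycine that BHMT releases and the sarcosine that follows it. DMGDH was at 17.4, 17.1 and 15.7 CPM in vehicle, 136, 70.7 and 52.9 with H3B-6527, 25.3, 19.0 and 20.5 with lenvatinib and 95.03, 78.5 and 62.0 with the combination, a rise of 2.37 ± 0.30 (adjusted p = 6.00e-05) and of 2.23 ± 0.29 (adjusted p = 9.27e-05). SARDH rose by 0.99 ± 0.10 (adjusted p = 1.12e-05) and 0.97 ± 0.10 (adjusted p = 1.33e-05). MAT1A, the liver form of the enzyme that makes S-adenosylmethionine, rose by 1.53 ± 0.21 (adjusted p = 1.33e-04) and 1.58 ± 0.21 (adjusted p = 1.11e-04), and GNMT, which spends S-adenosylmethionine on glycine, by 2.34 ± 0.29 (adjusted p = 3.29e-05) and 2.35 ± 0.29 (adjusted p = 3.16e-05). Enzymes on both sides of the methionine cycle, methylation of homocysteine and use of S-adenosylmethionine, were thus higher in the same tumors. In transsulfuration, CTH, which releases cysteine, rose by 1.08 ± 0.14 (adjusted p = 4.60e-05) and 0.98 ± 0.14 (adjusted p = 9.78e-05), while CBS, the step before it, gave 0.12 ± 0.14 (adjusted p = 0.507) with H3B-6527 and rose by 0.45 ± 0.14 (adjusted p = 0.0169) with the combination. With the combination, CBS was no longer called once vehicle replicate 3 was left out (adjusted p = 0.0580) or library totals were used (0.0907), and with H3B-6527 CBS passed once replicate 1 of that group was left out (0.31, adjusted p = 0.00552).

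GLS2, the liver-type glutaminase, releases ammonia from glutamine. It was at 0.558, 0.917 and 0.630 CPM in vehicle, 7.41, 3.71 and 3.64 with H3B-6527, 1.18, 0.770 and 0.667 with lenvatinib and 4.33, 6.11 and 4.42 with the combination. It rose by 2.81 ± 0.33 (adjusted p = 2.48e-05) with H3B-6527 and by 2.80 ± 0.33 (adjusted p = 2.59e-05) with the combination, and neither group overlapped vehicle.

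Isoenzymes with opposite changes were seen in 2 pairs, each of an enzyme of the list and a relative outside it. Of the branched chain transaminases, mitochondrial BCAT2 was at 9.80, 8.15 and 9.64 CPM in vehicle, 15.05, 22.8 and 24.8 with H3B-6527, 13.3, 11.9 and 11.3 with lenvatinib and 18.2, 24.5 and 23.8 with the combination. Cytosolic BCAT1 was at 21.0, 17.5 and 22.5 CPM in vehicle, 3.60, 6.97 and 12.5 with H3B-6527, 16.6, 17.4 and 18.5 with lenvatinib and 5.25, 8.36 and 10.3 with the combination. BCAT1 fell by 1.43 ± 0.35 (adjusted p = 0.00490) and 1.35 ± 0.34 (adjusted p = 0.00630), and its H3B-6527 tumors were spread widely. For S-adenosylmethionine synthesis, liver-type MAT1A was at 36.4, 33.2 and 29.4 CPM in vehicle, 127, 87.4 and 72.2 with H3B-6527, 50.2, 41.2 and 32.3 with lenvatinib and 109, 107 and 79.5 with the combination. MAT2A, the form used outside the liver, was at 136, 129 and 141 CPM in vehicle, 90.3, 94.6 and 80.9 with H3B-6527, 97.3, 127 and 106 with lenvatinib and 84.5, 80.8 and 83.3 with the combination, and fell by 0.61 ± 0.10 (adjusted p = 2.40e-04) and 0.71 ± 0.10 (adjusted p = 7.99e-05). In both pairs the H3B-6527 and combination tumors were above vehicle for the isoenzyme of the list and below it for the other. These pairs were chosen with earlier results of the same tumors known, so they describe these data and do not test a rule about isoenzymes.

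**Figure D4:**
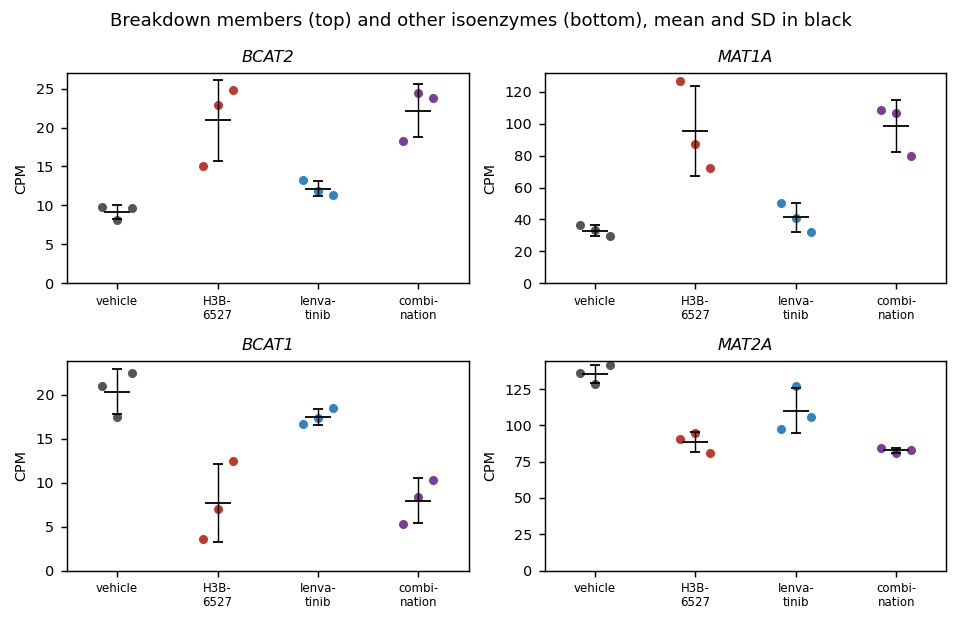
CPM, on linear axes from 0, of BCAT2 and MAT1A (top) and of BCAT1 and MAT2A (bottom), with 1 point per tumor and the mean and SD of the 3 tumors of each group in black. In each pair the H3B-6527 and combination tumors are above vehicle for the enzyme of the list (MAT1A 72.2 to 127 CPM with H3B-6527 against 29.4 to 36.4 in vehicle) and below it for its partner (MAT2A 80.9 to 94.6 against 129 to 141).

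A wider list of 58 other genes from the same pathways held 55 in the table and 52 tested. Of these 30 rose and 6 fell with H3B-6527, and 31 rose and 5 fell with the combination, beside 25.2% and 24.3%, and 24.8% and 25.3%, of all genes. By pathway, the counts with H3B-6527 were 2 of 4 up for phenylalanine and tyrosine, 1 of 3 for tryptophan, 2 of 2 for proline and 3 of 4 for lysine, with 0 down in each. For the branched chain pathway 9 of 13 rose and 1 fell, for glycine and serine 6 of 8 and 1, for methionine, choline and cysteine 4 of 12 and 2, and for glutamine and its products 4 of 7 and 2. With 49.4% of all genes called in either direction, the counts of 2 of 4 for phenylalanine and tyrosine and 6 of 12 for methionine, choline and cysteine are near the share over all genes. Those named here were among the genes with the smallest p-values of their pathway. HOGA1, at the end of hydroxyproline breakdown, rose by 1.98 ± 0.14 (adjusted p = 1.14e-06) with H3B-6527 and 1.79 ± 0.14 (adjusted p = 2.30e-06) with the combination, and OAT, which links ornithine to the proline pathway, by 1.49 ± 0.21 (adjusted p = 1.61e-04) and 1.37 ± 0.21 (adjusted p = 2.80e-04). AGXT2, a mitochondrial transaminase of glyoxylate, rose by 2.30 ± 0.26 (adjusted p = 3.28e-05) and 2.39 ± 0.26 (adjusted p = 2.59e-05), and GPT, alanine transaminase, by 1.95 ± 0.17 (adjusted p = 3.16e-06) and 1.96 ± 0.17 (adjusted p = 3.68e-06). MUT, methylmalonyl-CoA mutase, rose by 0.84 ± 0.08 (adjusted p = 7.55e-06) and 0.91 ± 0.08 (adjusted p = 5.27e-06). In lysine breakdown DHTKD1, of the 2-oxoadipate dehydrogenase, rose by 1.04 and 1.06, and ALDH7A1, the aminoadipate semialdehyde dehydrogenase, by 0.60 and 0.57. SHMT2, the mitochondrial serine hydroxymethyltransferase, fell by 0.99 ± 0.17 (adjusted p = 3.74e-04) and 0.76 ± 0.16 (adjusted p = 0.00207). IDO1 and IDO2, which also open the tryptophan ring, and GLYAT had too few counts to be tested. In a list of 13 genes for amino acid synthesis or isoenzymes used outside the liver, BCAT1 and MAT2A among them, 1 rose and 7 fell with H3B-6527, and 1 rose and 8 fell with the combination. ASNS, asparagine synthetase, fell by 0.79 ± 0.14 (adjusted p = 6.01e-04) and 0.86 ± 0.14 (adjusted p = 3.43e-04), PYCR1, the last step of proline synthesis, by 1.26 ± 0.29 (adjusted p = 0.00380) and 0.94 ± 0.29 (adjusted p = 0.0166), and the gene that rose was PSPH, the last step of serine synthesis (0.90 and 0.87).

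Lenvatinib alone called 0 of the 50 enzymes with edgeR, as it called 0% of all genes tested. At an unadjusted p under 0.05, 16 of the 50 passed, beside 10.7% of all genes. DESeq2 called 3 of the 50, and of all genes 128 higher and 117 lower, and limma-voom called 0 of the 50. The fold change was above 0 for 47 of the 50, beside 51.5% of all genes, with a median of 0.19, and all 3 lenvatinib tumors were above all 3 vehicle tumors for 18 enzymes and below for 1 (11.8% and 10.9%). The 3 called by DESeq2 were PRODH (0.73, adjusted p = 0.0155), PIPOX (0.66, adjusted p = 0.0337) and AGXT (0.76, adjusted p = 0.0112), for which edgeR gave 0.73 ± 0.17 (adjusted p = 0.1496), 0.67 ± 0.18 (adjusted p = 0.182) and 0.77 ± 0.18 (adjusted p = 0.167). HAL, lower with H3B-6527, had a lenvatinib value of 0.57 ± 0.30 (adjusted p = 0.539), with all 3 tumors above vehicle.

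Adding lenvatinib to H3B-6527 changed 1 of the 50 enzymes, AMDHD1, which was higher with the combination by 0.95 ± 0.12 (adjusted p = 0.0127); 0.0126% of all genes were called higher and 0% lower. At an unadjusted p under 0.05, 7 of the 50 passed, beside 9.42% of all genes. With edgeR 2 genes of the whole table were called, the other being JAML (0.88, adjusted p = 0.0107), named after its value was seen, whereas DESeq2 called 81 genes higher and 17 lower. Over the alternatives tried, the adjusted p of AMDHD1 ran from 2.08e-10 to 0.354 and its value from 0.83 to 1.05. The call was lost without combination replicate 2 (0.97, adjusted p = 0.0803), without combination replicate 3 (0.83, adjusted p = 0.0576) and in a fit that held only these 2 groups (0.96, adjusted p = 0.354). All 3 combination tumors lay above all 3 H3B-6527 tumors for 9 enzymes and below them for 1 (5.95% and 7.15% of all genes). HAL, the other histidine enzyme lower with H3B-6527, was higher in all 3 combination tumors than in all 3 H3B-6527 tumors, by 0.98 ± 0.30 (adjusted p = 0.384), and was not called. The widest 95% interval of the 50 in this comparison reached 0.978 to either side of its estimate, that of BHMT.

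**Figure D5:**
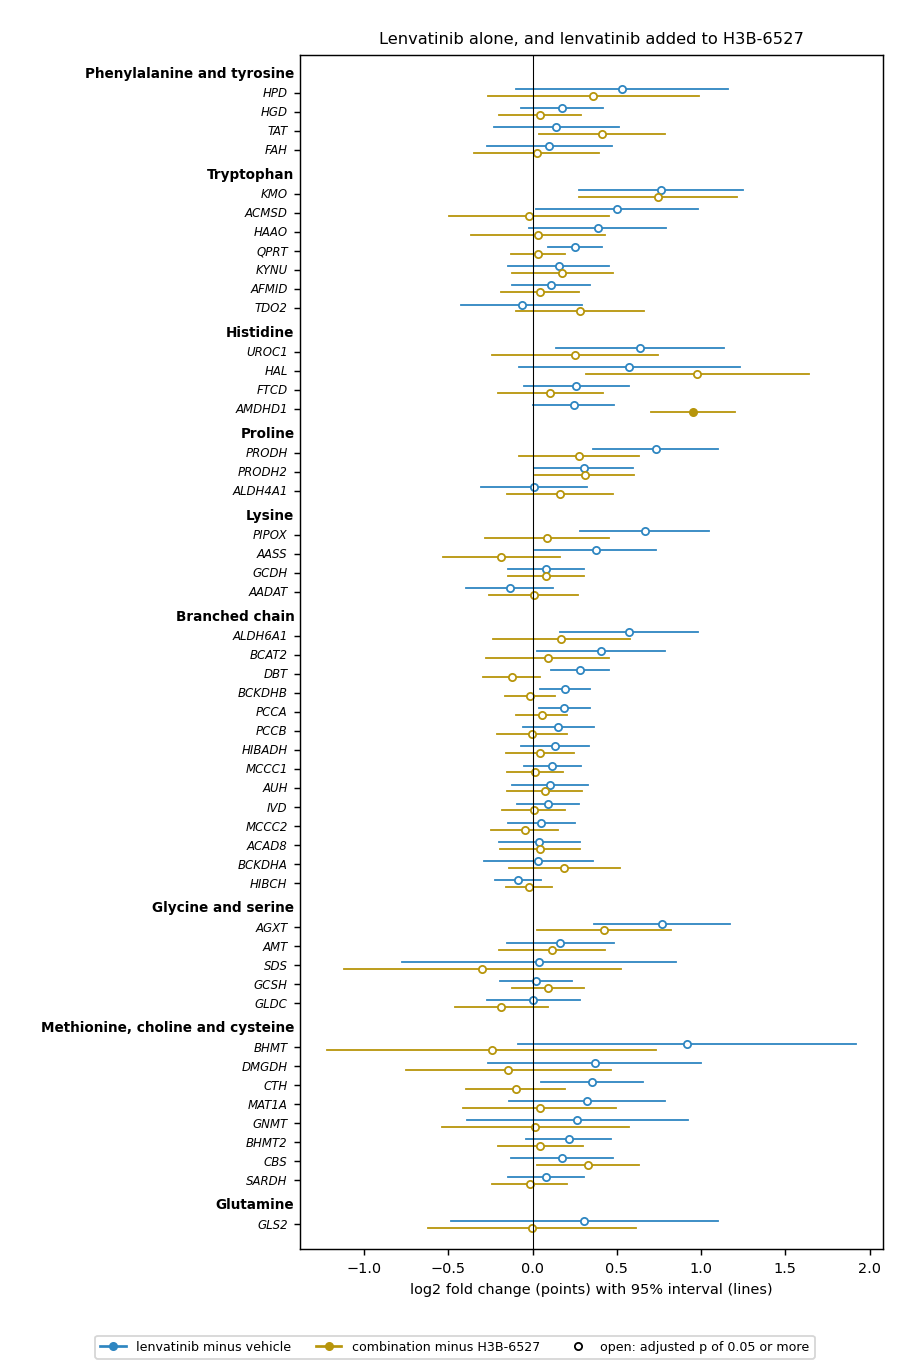
Log2 fold change of the 50 enzymes for lenvatinib against vehicle and for the combination against H3B-6527. Lines are 95% intervals derived from edgeR's F statistic, and filled points have an adjusted p under 0.05. AMDHD1 (0.95) in the second comparison is the only filled point, and 47 of the 50 lenvatinib values are above 0.

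The contrast of the combination minus both single agents plus vehicle, which asks whether the log2 changes add up, called 0 of the 50 enzymes and 0% of all genes with edgeR. At an unadjusted p under 0.05, 5 of the 50 passed, beside 5.39% of all genes. DESeq2 called 1 of the 50, AMDHD1 (0.72, adjusted p = 0.0365), and of all genes 13 higher and 5 lower, and limma-voom called 0 of the 50. With edgeR the AMDHD1 value was 0.71 ± 0.16 (adjusted p = 0.732). Against lenvatinib alone, the combination had 31 enzymes higher and 6 lower (19.1% and 20.9% of all genes), with a median of 0.48. Lenvatinib against H3B-6527 gave 6 higher and 24 lower (20.6% and 20.5%), with a median of −0.36, and these 2 comparisons share the lenvatinib tumors.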

How the data were processed

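RNA from 12 tumors, 3 mice per group, was sequenced, each library on 4 lanes. The deposited table holds expected counts (estimated counts of reads per gene), which the authors left unscaled; 40.3% of values were not whole and all were rounded. STAR, kallisto and the builds GRCh37 and GRCm38 are named in the submitters' processing notes; for these, versions and roles are not given in the sources used here. Although the series is labelled mouse, the table lists human symbols. Whether host reads were removed is not known, so host reads could add to conserved genes. No human reference was used here, so positions and sequences are not given.

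Genes were kept by filterByExpr (minimum count 10) on the 4 groups. edgeR 4.0.16 in R 4.3.3 fitted all 12 libraries at once (quasi-likelihood F-test, 2-sided, with TMM factors and robust dispersion), with Benjamini-Hochberg adjustment over 15836 genes per comparison and a threshold of 0.05. The 6 pairs of groups and the non-additivity contrast were tested. No batch or pairing of animals is labelled. A level of 3 counts is 0.0762 to 0.126 CPM, which covers counting error only. This level was not used to filter or call genes. The script was tested on simulated counts.

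Alternatives were DESeq2 1.42.0, limma-voom (limma 3.58.1), library totals without TMM factors, no filter on low counts, the 2 groups alone, and leaving out each tumor. The 50 members, the pathway lists and the isoenzyme pairs were chosen with earlier results of these data known. Values per tumor are given for the largest rise and fall of each pathway called with H3B-6527, and for AMDHD1. UROC1, DMGDH and the 2 isoenzyme pairs were added to complete a pathway or pair. Other genes of a pathway were named by the smallest p with H3B-6527; results for some of them are not reported here.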

Additional observations from a re-analysis of the deposited data

How the results depend on the processing

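Leaving out each tumor in turn gave 35 to 38 members called for H3B-6527 against vehicle, 37 to 39 for the combination against vehicle, 30 to 36 for the combination against lenvatinib, 28 to 33 for lenvatinib against H3B-6527, 0 to 1 for the combination against H3B-6527, and 0 for lenvatinib against vehicle and for non-additivity. The other alternatives gave 36 to 39, 38 to 42, 33 to 37 and 27 to 31 for the first 4 of these. DESeq2 called 3 members for lenvatinib against vehicle and 1 for non-additivity, where edgeR called 0, and the fit of the 2 groups alone called 0 for the combination against H3B-6527, where the fit of all groups called 1; the cause was not tested. Of the members called with H3B-6527, 34 of 39 passed in all 11 alternatives, and with the combination 36 of 40. Besides the losses given with each enzyme, calls with H3B-6527 were lost without the filter for AADAT (0.0523) and HIBCH (0.0940), in the 2 groups alone for AADAT (0.0633), ACMSD (0.0790) and HIBCH (0.0838), and with library totals for ACMSD (0.0774), all adjusted p-values. With the combination they were lost without the filter for AADAT (0.0568) and HIBCH (0.0627) and with library totals for ACMSD (0.105). No called member changed sign in these alternatives. Library totals without TMM factors moved the median of all genes by −0.12 with H3B-6527 and −0.15 with the combination. Uncalled values with H3B-6527 that changed sign on leaving out 1 tumor were those of FAH (−0.16 without vehicle replicate 2 to 0.086 without H3B-6527 replicate 1, and 0.06 without vehicle replicate 1), KYNU (−0.14 without H3B-6527 replicate 3 to 0.00251 without replicate 1), SDS (−0.063 without H3B-6527 replicate 1 to 0.41 without replicate 2), MCCC2 (−0.057 without H3B-6527 replicate 3 to 0.088 without replicate 1) and CBS (−0.00664 without H3B-6527 replicate 2 to 0.31 without replicate 1). With library totals the sign changed for MCCC2 (−0.10), CBS (−1.57e-04), QPRT (−0.039) and GCSH (−0.030). Calls in the comparisons with lenvatinib tumors were lost in at least 1 alternative for 9 of 37 members (combination against lenvatinib) and 3 of 30 (lenvatinib against H3B-6527). With 3 tumors per group, and H3B-6527 replicate 3 at 23.8 M counts, the precision of each uncalled value is that of its interval.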
